A study of Mus musculus with 2 samples.

Results

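RNA levels of 47 mouse genes known to be imprinted, in 19 clusters, were read in epiblast stem cells obtained along 2 routes from 1 embryonic stem (ES) cell line. A gene was counted as a member by its name, and every mouse probe that carried the name was read. Counts used the brightest detected probe of each gene. The members themselves were chosen with earlier results of these data known. Of the 47 genes, 46 had a probe, 44 were detected on at least 1 array and 38 had a mean level above the minimum used for counting, set beside 34650 gene names on the array, 25851 detected and 16653 above the same minimum. Rian had no probe under its name, Slc22a3 and Nap1l5 were detected on neither array, and Usp29, Zim1, Plagl1, Rasgrf1, Inpp5f and Kcnk9 were detected but lay below the minimum.

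RNA was measured on 2 single-colour arrays, 1 per group, so no value has a replicate and no test between the groups was possible. Both groups derived from E14Tg2A, an ES cell line of strain 129/Ola that is kept in serum and LIF, and both were cultured in chemically defined minimal medium with N2/B27, FGF2 at 12 ng/mL and Activin A at 20 ng/mL. EpiSC were made from the ES cells themselves, whereas ELA-EpiSC were made from Epiblast-Like Aggregates (ELA), the floating clusters that the same ES cells form without serum and LIF. Each RNA was a pool of 3 sets of experiments, so the spread between cultures is hidden inside the pool, and 1 cell line stands for each route. The groups follow the sample titles; the source fields go against them, since they describe undifferentiated cells, as an Argonaute immunoprecipitate under EpiSC and as total RNA under ELA-EpiSC.

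At an imprinted gene, the copies inherited from the father and from the mother are used unequally. The difference is set by DNA methylation that is laid down at control regions in the egg or the sperm and kept through the wave of demethylation in the early embryo. Control regions act on several genes at once, which is why imprinted genes lie in clusters that often pair protein-coding genes with a long noncoding RNA of the opposite parental copy. In ES cells and their derivatives imprinted RNA levels are known to vary between lines and cultures. The array reads both copies together, so the parental copy named for a gene here is textbook knowledge and was not measured, and in bulk RNA fewer cells that use a gene cannot be told apart from less RNA per cell.

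The labelled cell type was checked first. All 8 epiblast markers examined (Pou5f1, Sox2, Nanog, Fgf5, Otx2, Dnmt3b, Lefty2 and Eomes) were detected on both arrays, and none differed by 1 on the log2 scale. Markers of other cell types differed between the pools. Of the 10 visceral endoderm markers above the minimum, 6 were higher in EpiSC past 1. Gata6 (12.93 and 12.36) and Sox17 (13.58 and 12.66) were higher in EpiSC by less than 1. Dab2 (8.80 and 9.01) and Cubn (7.84 and 7.95) were slightly higher in ELA-EpiSC. The summed signal of all 14, in which the brightest probes weigh most, went from 49579 in EpiSC to 15669 in ELA-EpiSC. Hnf4a, a defining factor of that tissue, read 12.79 in EpiSC and 7.67 in ELA-EpiSC, Ttr read 9.53 and was not well above background in ELA-EpiSC, and Afp lay near background on both arrays (6.26 and 6.47). Of 6 trophoblast markers above the minimum, Gata3 (12.71 and 10.16) and Elf5 (8.40 and 6.92) were higher in EpiSC past 1. Hand1 (7.99 and 7.42) and Krt7 (10.69 and 10.30) were higher in EpiSC by less than 1. Tead4 (8.45 and 9.03) and Plac1 (7.66 and 7.73) were higher in ELA-EpiSC. Cdx2 read 6.27 and 6.47 and Tpbpa was not detected. Of 6 neural markers Rax and Hesx1 were higher in EpiSC past 1 and Nes in ELA-EpiSC, and of 6 mesoderm markers Mesp1 was higher in EpiSC and T, Mixl1 and Col1a1 in ELA-EpiSC. Of 6 ground-state ES cell markers above the minimum 3 were higher in EpiSC past 1 (Tbx3, Nr0b1 and Tfcp2l1). Zfp42 (9.54 and 9.32) was higher in EpiSC by less than 1, while Esrrb (9.58 and 10.01) and Klf4 (9.46 and 9.62) were higher in ELA-EpiSC. Dppa3 lay near background and Prdm14 was not detected. The part of these cells in the values of the imprinted genes was not tested.

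Values are log2 normalized signals, and each difference is the ELA-EpiSC value minus the EpiSC value, so that a negative one marks a gene that was higher in EpiSC. A difference of 1 is a factor of 2. The measurement error known here is that between spots of 1 array: over 311 probes printed on 10 spots, the difference between the arrays had an SD of 0.10 from spot to spot, so 0.20 is taken as 2 spot SD. It holds nothing of the spread between cultures. Levels of different genes rest on different probes and were not set against each other.

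Probes of H19 and Airn are shown here because these noncoding RNAs were among the genes past 1 and their probes gave different values. H19 had 7 probes of 60 bases on the minus strand of chromosome 7 in the mm9 assembly, the first at chr7:149761492-149761551 and the farthest at chr7:149762417-149762476. Airn had 4 on the plus strand of chromosome 17, the first at chr17:12944784-12944843 and the next pair at chr17:13008078-13008137 and chr17:13008303-13008362. The first probe of a gene is the one at the lowest coordinate. Distance therefore runs from the end of the RNA towards its start for H19, and from the start towards the end for Airn. Each probe is named by its distance from the first probe of the same gene and is written as the scanner file lists it, with no base marked. Whether a probe lies in an exon or an intron was not assigned, since no mm9 annotation was used.
H19 at 0 bases: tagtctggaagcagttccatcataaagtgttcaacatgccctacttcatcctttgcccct
H19 at 681 bases: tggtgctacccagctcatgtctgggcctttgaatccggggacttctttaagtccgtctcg
H19 at 925 bases: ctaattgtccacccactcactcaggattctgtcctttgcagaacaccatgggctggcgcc
Airn at 0 kb: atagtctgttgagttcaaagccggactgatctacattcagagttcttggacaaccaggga
Airn at 63.3 kb: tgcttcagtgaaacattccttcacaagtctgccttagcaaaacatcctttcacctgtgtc
Airn at 63.5 kb: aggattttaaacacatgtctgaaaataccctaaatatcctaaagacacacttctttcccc
The H19 probes at 0, 681 and 925 bases hold 45.0%, 55.0% and 55.0% G and C, and the Airn probes 45.0%, 43.3% and 35.0%.

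Among the 38 imprinted genes above the minimum, 8 were at least 2-fold higher in EpiSC and 0 were at least 2-fold higher in ELA-EpiSC. Over all 16653 genes above the minimum the shares past 1 were 4.47% higher in EpiSC and 4.56% higher in ELA-EpiSC, against 21.1% and 0 for the imprinted genes. H19, Igf2, Ascl2, Ddc, Airn, Asb4, Nnat and Grb10 made up the 8. The median difference over the 38 was -0.28, beside 0.0014 over all genes. Below 0 were 27 of the 38, beside 49.8% of all genes. Beyond 2 spot SD, 22 were lower in ELA-EpiSC, 6 were higher and 10 stayed within it. Over all 16653 genes these counts were 5035, 5122 and 6496, so most genes lay beyond spot noise. These are counts over 1 array per group and describe these 2 pools. The shares beside those of all genes are a description, since the members were chosen with earlier results of these data known. A further list of 32 imprinted genes, given below, had 19 above the minimum, with 1 past 1 in EpiSC and 3 in ELA-EpiSC.

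These counts depend on the level at which the arrays are set equal, which quantile normalization fixes on the bulk of all genes. Of 10 spike-in RNA probes, which are meant to be added in equal amounts, 8 were detected, and all 8 were lower in ELA-EpiSC by 0.26 to 0.86, with a mean of -0.54. Scaled on them, all differences rise by 0.54: the median of the 38 becomes 0.26 beside 0.54 for all genes, Grb10 (-0.87) and Nnat (-0.93) fall short of 1, and Cdkn1c (1.06) and Mirg (1.04) pass it in ELA-EpiSC. H19, Igf2, Ascl2, Ddc, Airn and Asb4 stay past 1 in EpiSC under that scaling too. On that scale 12 of the 38 are below 0 and 26 above. The median of the 38 lies below that of all genes by 0.28 either way, and differences between genes do not move.

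**Figure D1:**
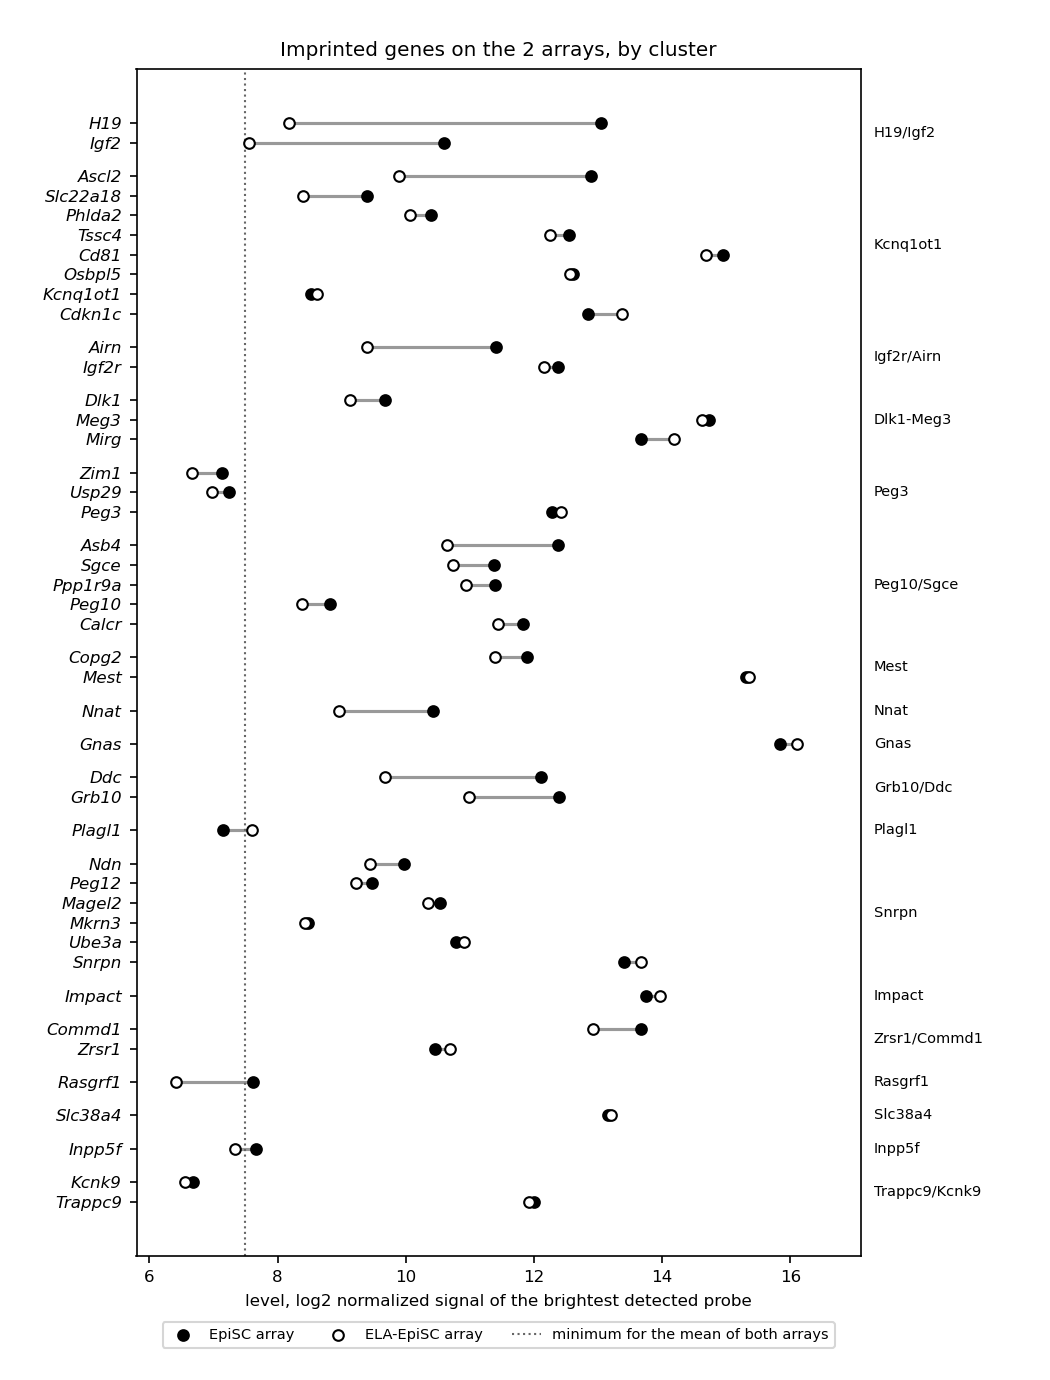
Levels of the 44 detected imprinted genes (x axis, log2 normalized signal of the brightest detected probe) by cluster, with filled points for the EpiSC array, open points for the ELA-EpiSC array and a dotted line at the minimum of 7.5. The widest gaps, with EpiSC on the right, belong to H19, Igf2, Ascl2 and Ddc, while Mest, Meg3, Osbpl5, Slc38a4 and Trappc9 have nearly the same level on both arrays.

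**Figure D2:**
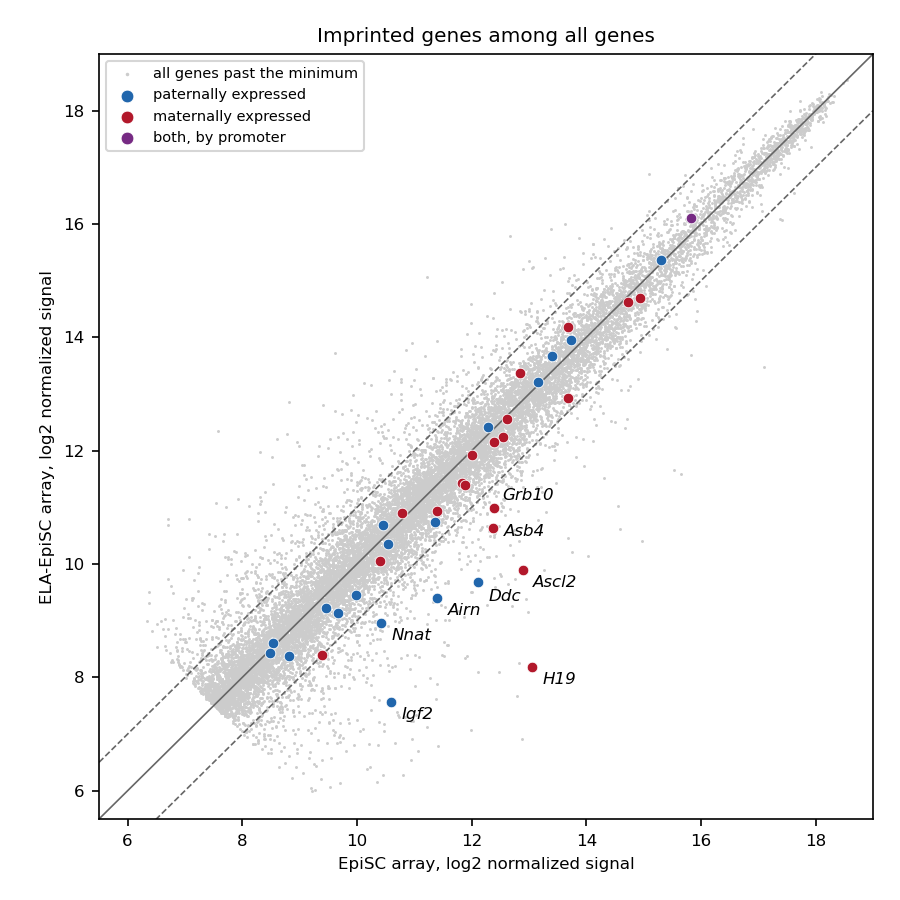
ELA-EpiSC level (y axis) against EpiSC level (x axis), both as log2 normalized signal, for the 16653 genes above the minimum in grey and the 38 imprinted genes in colour by parental copy, with a solid line of equality and dashed lines at a difference of 1. The 8 named genes lie below the lower dashed line and no imprinted gene lies above the upper one.

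H19 and Igf2 share enhancers on the far side of H19, and a methylation-sensitive boundary between them, bound by CTCF on the maternal copy, decides which of the pair is used. H19 is a maternally expressed noncoding RNA and Igf2 a paternally expressed growth factor of the embryo. H19 read 13.05 in EpiSC against 8.18 in ELA-EpiSC. The difference of -4.87 ranked 4 from the lowest among 16653 genes. Its unprocessed spot signal was 7739 over a background of 26 in EpiSC and 279 over a background of 22 in ELA-EpiSC, so the RNA was well above background on both arrays. Igf2, read by 1 probe, went from 10.59 to 7.56, a difference of -3.04. Both members of the pair, from opposite parental copies, were thus higher in EpiSC, and the difference of H19 minus that of Igf2 was -1.83 at the brightest probes, with 2 spot SD of 0.29. This comparison does not move with any scaling that shifts all genes alike, but it rests on the choice of H19 probe. With the detected probes averaged, H19 differed by -3.28, and the difference from Igf2 was -0.24. That average takes in the H19 probe at 925 bases (-0.03), which showed little signal on either array. The 2 spot SD above is for single probes and was not worked out for the average. Of the 10 visceral endoderm markers above the minimum, 8 were also lower in ELA-EpiSC, 6 of them past 1, and 2 were higher. Their part in the values of H19 and Igf2 was not tested.

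The 7 probes of H19 did not give 1 value. With growing distance from the first probe the differences were -4.87, -4.63, -3.97, -3.38, -2.99, -3.05 and -0.03. The EpiSC level was 13.05 at the first probe and between 9.51 and 9.83 at the 3 probes from 465 to 681 bases, while the ELA-EpiSC level of those 3 probes lay between 6.46 and 6.72, close to the lowest level called detected on that array (6.11). The farthest probe, at 925 bases, read 6.45 in EpiSC and 6.41 in ELA-EpiSC and so showed little signal on either array. A smaller difference at the dimmer probes goes together with an ELA-EpiSC value near the array's lower end, and its part was not tested.

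**Figure D3:**
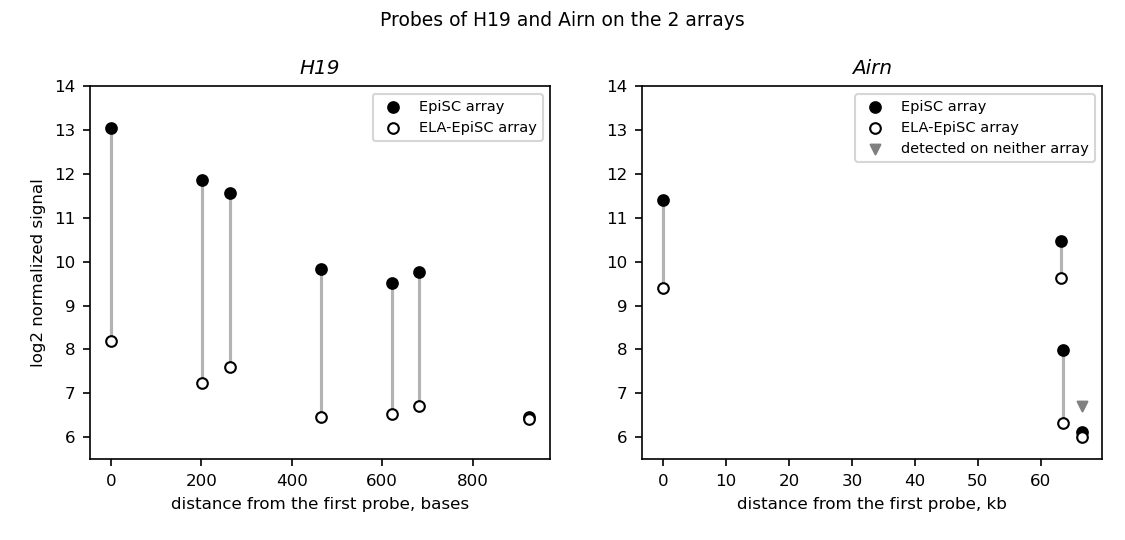
Log2 normalized signal (y axis) of the probes of H19 (left, distance in bases) and Airn (right, distance in kb) against distance from the first probe of each, with filled points for EpiSC and open points for ELA-EpiSC, and a grey triangle over the probe that was detected on neither array. EpiSC lies above ELA-EpiSC at 6 of the 7 H19 probes, with the points nearly together at 925 bases, and at the 3 detected Airn probes. Distance runs from the end of the RNA towards its start for H19 and the opposite way for Airn.

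Genes near H19 and Igf2 that are no members were read as well. Igf2os, the transcript antisense to Igf2, went from 11.40 to 7.88 (-3.53) at 16.5 kb from the Igf2 probe, and Tnnt3, a troponin gene of skeletal muscle on the other side of H19, from 10.72 to 7.30 (-3.42) at 63.0 kb from H19. Between Tnnt3 and H19, Mrpl23 read 15.27 and 14.32 (-0.96) and Nctc1 8.15 and 8.38 (0.23). Beyond Igf2os, Ins2 read 8.15 and 8.02. Of 21 genes above the minimum within 500 kb of the pair, Tnnt3 and Igf2os were past 1, and the median of the 21 was -0.16. The other 19 ranged from -0.96 to 0.37, so the wide differences belonged to a few genes around the pair and not to the whole interval.

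The Kcnq1ot1 cluster lies beside it on distal chromosome 7. Kcnq1ot1 is a paternally expressed noncoding RNA that silences the neighbouring protein-coding genes on its own copy, which leaves them to the maternal copy. Ascl2, a basic helix-loop-helix factor required for the trophoblast of the placenta, went from 12.89 to 9.89, 7.98-fold higher in EpiSC, and was the 1 member of 8 in the cluster past 1. Slc22a18, a transporter, lay just inside the threshold with 9.39 and 8.40 (-0.99). Cdkn1c, an inhibitor of cyclin-dependent kinases that restrains growth, went the other way, from 12.84 to 13.37 (0.53), the highest difference among the 38. Ascl2 and Cdkn1c, both known as maternally expressed genes of this cluster, differed from each other by -3.52 in their differences, far past the 2 spot SD of 0.29. Many imprinted genes are so only in some tissues, and whether these 2 were imprinted in the cells used here was not measured.

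The noncoding RNA of that cluster differed little at the probes named for it. Kcnq1ot1 read 8.53 in EpiSC and 8.61 in ELA-EpiSC (0.08), and its second probe differed by -0.08. A probe that the array lists under the separate name KCNQ1ot1, 42.0 kb away, read 11.39 and 10.89 (-0.50), which is beyond 2 spot SD. By its position that probe falls within the span of the Kcnq1ot1 RNA, near the start, and it was brighter than both Kcnq1ot1 probes. Read by its brightest probe under either name, the RNA would stand at -0.50 in place of 0.08. The remaining protein-coding members were Phlda2, a brake on placental growth (-0.33), Tssc4 (-0.30), the tetraspanin Cd81 (14.94 and 14.69, -0.26) and the sterol-binding protein Osbpl5 (-0.04). Trophoblast markers were mixed beside Ascl2, with 2 of 6 higher in EpiSC past 1 and 2 (Tead4 and Plac1) higher in ELA-EpiSC by less than 1. Cdx2 lay at the lower end of both arrays, and the part of these markers was not tested.

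**Figure D4:**
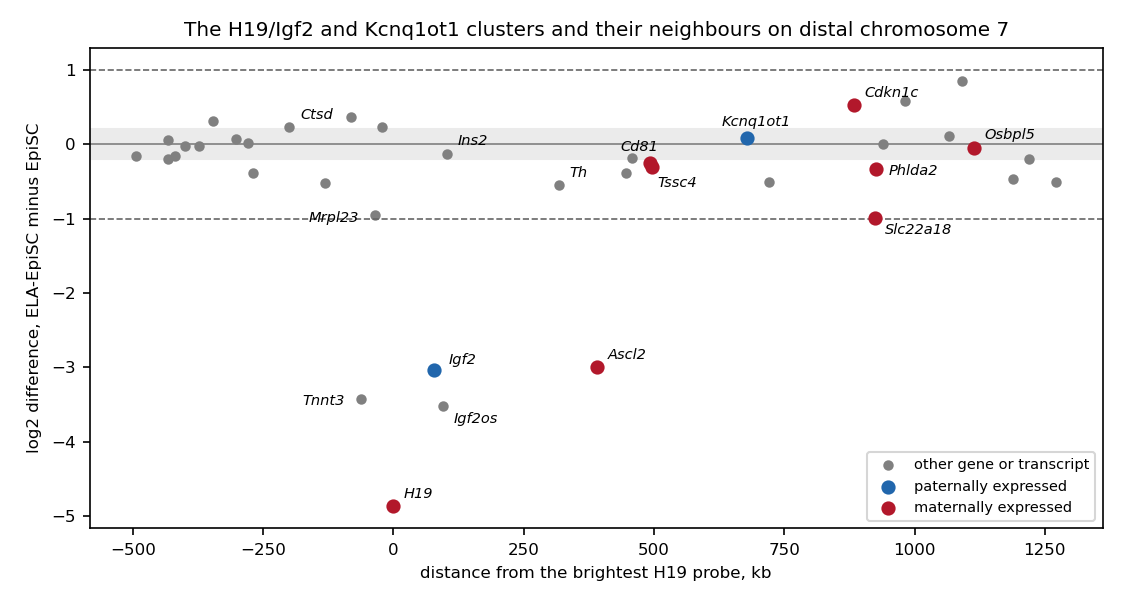
Log2 difference, ELA-EpiSC minus EpiSC (y axis), of the genes above the minimum on distal chromosome 7 against distance from the brightest H19 probe in kb (x axis), with imprinted genes coloured by parental copy, other genes in grey, a grey band for 2 spot SD and dashed lines at -1 and 1. H19, Igf2, Igf2os, Tnnt3 and Ascl2 lie near or below -3, while genes between and around them, such as Ins2, Th and Ctsd, lie within 1 of 0.

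The Igf2r and Airn cluster on chromosome 17 gave unequal values for its pair. Airn is a paternally expressed noncoding RNA whose transcription silences Igf2r on the same copy, and Igf2r encodes the receptor that clears IGF2 from the cell surface. Airn read 11.40 in EpiSC and 9.39 in ELA-EpiSC (-2.01) at its brightest probe. The probes at 63.3 kb and 63.5 kb differed by -0.84 and -1.67, and the fourth was detected on neither array, so the direction was the same at the 3 detected probes and the size was not. An unnamed interval transcript whose probe lies 0.2 kb from the brightest Airn probe read 10.25 and 8.30 (-1.95). Its interval takes in that Airn probe, so it is no separate neighbour by position.

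Igf2r, in contrast, read 12.38 and 12.15 (-0.23). Its probe was printed on 10 spots, and in 10 of 10 the ELA-EpiSC value was the lower, with an SD of 0.0567 for the difference between spots, while scaling on spike-in RNA turns its sign (0.30). The difference of Airn minus that of Igf2r was -1.78, and -1.28 with the detected Airn probes averaged, so the pair changed unequally under any scaling that shifts all genes alike. Slc22a3, a transporter of this cluster that is maternally expressed in the placenta, had a probe but no detected signal on the arrays.

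The Dlk1-Meg3 cluster holds the paternally expressed Dlk1, a transmembrane protein related to Notch ligands, and a row of maternally expressed noncoding RNAs (Meg3, Rian and Mirg) that host small nucleolar RNAs and miRNAs. Loss of these noncoding RNAs is known from some mouse pluripotent cell lines. Meg3 read 14.73 in EpiSC and 14.63 in ELA-EpiSC (-0.11), and its other probes differed by -0.18 and -0.05, so the RNA was bright on both arrays and within 2 spot SD between them. Dlk1 read 9.67 and 9.14 (-0.54). Mirg gave opposite signs: its brightest probe read 13.67 and 14.18 (0.50), while probes 10661 and 18577 bases farther along differed by -0.77 and -0.69. No single direction is given for Mirg for that reason. Rian had no probe of its name. Between the Meg3 and Mirg probes lay 9 other genes or unnamed interval transcripts above the minimum, with differences from -1.07 to -0.02 and a median of -0.19, of which 1 was past 1 (11.60 and 10.53) and the other 8 lay between -0.44 and -0.02.

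In the Grb10 and Ddc cluster on chromosome 11 both members were higher in EpiSC past 1. Ddc, the decarboxylase that makes dopamine and serotonin, is paternally expressed in the heart and went from 12.11 to 9.68 (-2.43); its second, dim probe differed by -1.10. Grb10, an adaptor that dampens insulin and IGF signalling and is maternally expressed outside the brain, went from 12.38 to 10.98 (-1.40) at its only probe. Genes around the pair did not share this. The 4 neighbours above the minimum within 500 kb ranged from -0.19 to 0.33, with Fignl1, 13.5 kb from the Ddc probe, at 12.51 and 12.84.

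Every measured member of the Peg10/Sgce cluster on chromosome 6 was lower in ELA-EpiSC beyond 2 spot SD, 5 of 5, with a median of -0.46. Over all 16653 genes above the minimum, 5035 were lower beyond 2 spot SD. On the spike-in scale Asb4 and Sgce alone stayed lower in ELA-EpiSC. Asb4, a maternally expressed substrate-recognition subunit of a ubiquitin ligase, was the member past 1, from 12.38 to 10.64 (-1.74), or -1.04 with its probes averaged. Its second probe, much dimmer, read 7.29 and 6.94 (-0.35). Sgce, the epsilon sarcoglycan, differed by -0.63, Ppp1r9a, which encodes the actin-binding neurabin, by -0.46, Peg10, a gene derived from a retrotransposon and needed for the placenta, by -0.43, and the calcitonin receptor Calcr by -0.40. The 11 neighbours above the minimum had nearly the same median as the members (-0.46).

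Nnat, the paternally expressed neuronatin, lies within an intron of Blcap on chromosome 2. It read 10.42 and 8.96 (-1.46), and its other probe differed by -1.57. Blcap read 12.71 and 12.69, so the host gene was within 2 spot SD while the gene inside it was past 1. Rasgrf1, an exchange factor for Ras on chromosome 9, read 7.62 and 6.42 (-1.20), but its mean lay below the minimum and it was not counted. Its neighbour Ctsh, a cathepsin 58.9 kb away, read 13.75 and 10.22 (-3.53).

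**Figure D5:**
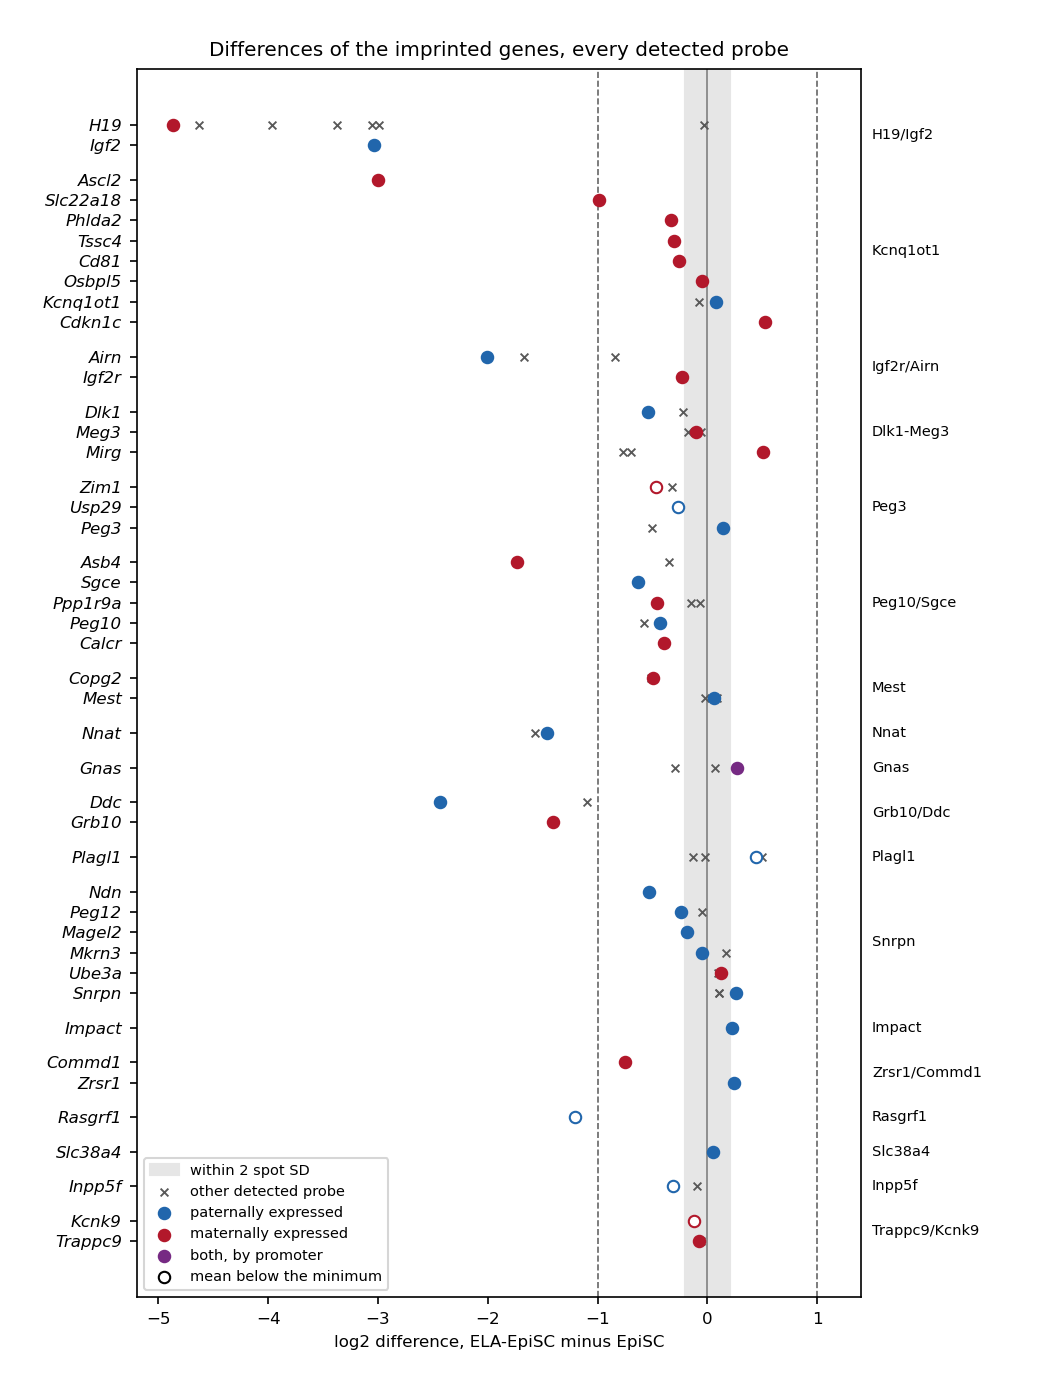
Log2 difference, ELA-EpiSC minus EpiSC (x axis), of the 44 detected imprinted genes by cluster, with a circle for the brightest probe coloured by parental copy, crosses for the other detected probes, open circles for genes below the minimum, a grey band for 2 spot SD and dashed lines at -1 and 1. H19, Asb4, Ddc, Mirg and Airn show the widest spread between probes of 1 gene, and no circle lies past 1 on the right.

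The Snrpn cluster on chromosome 7, whose human counterpart is deleted in Prader-Willi and Angelman syndromes, held 6 members above the minimum. None of the 6 passed 1, with a range from -0.53 to 0.26. Snrpn, a splicing-related protein gene, read 13.41 and 13.67 (0.26), and its other probes differed by 0.10 and 0.11. Ndn, a growth suppressor of neurons, read 9.98 and 9.45 (-0.53). Peg12 (-0.24), Magel2 (-0.19), Mkrn3 (-0.05) and Ube3a (0.13), the ubiquitin ligase that is maternally expressed in neurons, lay between them.

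Members of the Mest, Gnas and Zrsr1/Commd1 clusters stayed within 1. Mest, a paternally expressed gene of the embryonic mesoderm, read 15.30 and 15.36 (0.06) over 10 spots, of which 9 were higher in ELA-EpiSC, with an SD of 0.0845 between spots. Copg2, which overlaps Mest and encodes a coat protein of the Golgi, read 11.88 and 11.39 (-0.49). Gnas, which encodes the stimulatory G protein subunit and uses promoters of different parental copies, read 15.83 and 16.10 (0.27) at its brightest probe, and the other detected probes, of its other transcripts, differed by -0.30 and 0.07. Zrsr1 lies within an intron of Commd1, and the pair went apart, with 0.24 for the paternally expressed Zrsr1 (10.45 and 10.69) and -0.75 for the maternally expressed Commd1 (13.67 and 12.93). Their differences differed by -0.99 (Commd1 minus Zrsr1).

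The remaining members were near 0 or dim. Impact, a regulator of translation under amino acid stress, read 13.74 and 13.96 (0.22), the amino acid transporter Slc38a4 13.15 and 13.20 (0.05), and Trappc9, a vesicle-tethering subunit, 12.00 and 11.93 (-0.07). Peg3, a paternally expressed zinc-finger protein, read 12.28 and 12.42 (0.14), although its second probe differed by -0.50. Zim1 (7.14 and 6.67) and Usp29 (7.24 and 6.97) of the same cluster, Inpp5f (7.66 and 7.34), Kcnk9 (6.68 and 6.56) and Plagl1 (7.16 and 7.60) were detected below the minimum. The 4 Plagl1 probes ranged from -0.13 to 0.50.

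Genes of both parental copies were among the 8. Of 18 paternally expressed genes above the minimum, 4 were past 1 (Igf2, Airn, Nnat and Ddc), and their median was -0.21. Of 19 maternally expressed genes, 4 were past 1 (H19, Ascl2, Asb4 and Grb10), with a median of -0.33. No paternally or maternally expressed gene was past 1 in ELA-EpiSC. No test between the copies was made, since the genes of a cluster share a control region and are not independent.

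Probes of 1 gene were compared wherever 2 or more were detected, which was so for 24 genes. In 3 of them 1 probe passed 1 and another did not (H19, Airn and Asb4), and in 2 of them detected probes had opposite signs beyond 2 spot SD each (Mirg and Gnas). In all 5 the value counted above is that of the brightest probe, which covers 1 stretch of the RNA and can miss a change in a transcript that lacks it.

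Genes that keep or set imprints were read from a separate list. ZFP57 and ZFP445 bind methylated control regions and recruit TRIM28, UHRF1 and DNMT1 copy methylation to the new strand, and DNMT3A, DNMT3B and DNMT3L lay it down. All 15 genes of the list were detected, 14 were above the minimum, and 0 of the 14 passed 1 in either direction. Over all genes above the minimum 9.03% passed it, so a count of 0 among 14 is close to that share. Dnmt3b was the lowest at 17.07 and 16.24 (-0.84), and Dnmt3a the highest at 10.93 and 11.42 (0.49). Zfp57 read 9.58 and 9.84, Trim28 14.81 and 15.15, Ctcf 13.05 and 13.36, and Dnmt1 11.30 and 11.36. DNA methylation was not measured.

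A further list of 32 imprinted genes outside the 47 was read for comparison. Of these 28 were detected and 19 lay above the minimum; 1 was higher in EpiSC past 1 and 3 were higher in ELA-EpiSC, with a median of -0.01. Sfmbt2 (9.13 and 10.87, 1.74), Begain (7.68 and 8.79, 1.11) and Zdbf2 (8.42 and 9.50, 1.08) were the 3, and Ano1 (10.04 and 8.74, -1.30) was the other.

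Genes near the clusters were read as a local comparison. Within 500 kb of a member probe lay 309 other named genes or transcripts, 176 of them above the minimum, of which 10 (5.68%) were higher in EpiSC past 1 and 7 (3.98%) higher in ELA-EpiSC, with a median of -0.04. Besides those given above, Unc93a, near Airn, read 7.05 and 9.05 (1.99), and Fam13a, 28.1 kb from the undetected Nap1l5, 8.89 and 7.60 (-1.29). Shares among neighbours were therefore close to those over all genes, 4.47% and 4.56%. The neighbours are no baseline free of imprinted genes. They include Igf2os beside Igf2 and genes of the further imprinted list, such as Begain, Th and Ins2. They also include readings within the span of a member, namely KCNQ1ot1 and the interval transcript at the brightest Airn probe.

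The 8 genes came from 6 clusters with different control regions, and their promoters were searched for a sequence in common. Promoters from RefSeq (GRCm38.p6, 250 bases before to 50 after a start) were on hand for 40 of the 47 members and not for H19, Cdkn1c, Peg10, Sgce, Impact, Trappc9 and Kcnk9. The hexamer searched, on both strands, was TGCCGC, known as the core that ZFP57 binds when it is methylated. It was found in 12 of 40 members, and in 12.2% of 27025 genes, taking for each gene the promoter with the most CpG. Members also held more CpG, with a median of 17 against 8, and the hexamer contains a CpG. Among the members higher in EpiSC past 1 it was in 2 of 7 (Grb10 and Nnat; Igf2 holds it in another of its promoters), and among the others above the minimum in 7 of 25. A match is a run of letters and not a binding site.

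The promoters of the noncoding RNAs of 2 clusters are shown because one RNA was level between the arrays and the other was not. Capitals mark the hexamer, here as its reverse complement, in the Meg3 promoter at chr12:109540746-109541045 on the plus strand, which has 13 CpG. The Airn promoter at chr17:12741061-12741360, also on the plus strand, has 3 CpG and no match.
Meg3 promoter: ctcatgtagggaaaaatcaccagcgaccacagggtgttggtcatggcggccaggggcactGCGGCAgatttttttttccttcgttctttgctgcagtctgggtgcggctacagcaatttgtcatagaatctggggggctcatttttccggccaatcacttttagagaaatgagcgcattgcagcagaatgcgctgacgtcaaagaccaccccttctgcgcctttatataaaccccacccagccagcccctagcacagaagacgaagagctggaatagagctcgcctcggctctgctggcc
Airn promoter: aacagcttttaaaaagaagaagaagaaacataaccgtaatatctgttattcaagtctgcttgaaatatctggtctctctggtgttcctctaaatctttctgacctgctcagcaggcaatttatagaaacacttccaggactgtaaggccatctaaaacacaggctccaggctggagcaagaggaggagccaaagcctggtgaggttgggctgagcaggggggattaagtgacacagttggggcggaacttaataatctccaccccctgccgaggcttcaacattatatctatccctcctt
Meg3 differed by -0.11 between the arrays and Airn by -2.01. No link between the hexamer and the difference is drawn from these promoters. Kcnq1ot1 differed by 0.08 at its counted probe, and by -0.50 at the probe listed as KCNQ1ot1, with no match in its promoter. Nnat differed by -1.46 with a match.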

How the data were processed

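Total RNA of both groups was labelled with Cy3 from 50 ng, per the labels, and hybridised to Agilent SurePrint G3 mouse arrays on 1 slide, scanned on 1 day. The deposited scanner files hold linear spot intensity that the authors had not yet normalized, with each spot's local background, written by Feature Extraction 10.7.3.1 per the file headers (the submitters' processing notes name 9.1), with probe positions in mm9. A second deposited table holds log2 values per probe, made by the authors in limma with background correction and quantile normalization. It was used as an alternative, its correction is not given in the sources used here, and its column medians were 6.38 and 6.38.

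From the mean spot signal and median background, normexp (offset 50) and quantile normalization were run with limma 3.58.1 in R 4.3.3. Control spots and flagged spots (158 in EpiSC and 117 in ELA-EpiSC) were left out, and no spot was saturated. Spots of a probe were averaged. A probe was detected where a share of 0.5 or more of its spots passed Feature Extraction's test against background, a gene was read by its brightest detected probe, and counts used genes with a mean log2 level of at least 7.5 and an absolute difference of 1. The code was tested on simulated data. The number of arrays, 2, limits the precision.

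All members were accounted for. Both array values were planned for members past 1, for those with probes that disagree, for 5 reciprocal pairs and for the 10 members with the highest mean level. The members and the lists of other genes were chosen with earlier results of these data known. Genes were named as in the scanner files. Alternatives were an offset of 0, no background correction, Feature Extraction's processed signal, other scalings, median pixel signal, flagged spots kept, the mean of all probes, the deposited values, other filters, a threshold of 2.5 and, chosen after seeing the data, the count without H19 and Igf2.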

Additional observations from a re-analysis of the deposited data

How the results depend on the processing

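No paired analysis was possible because EpiSC and ELA-EpiSC were measured on 1 array each, which also leaves no replicate to take out. The 8 imprinted genes past 1 in EpiSC kept their sign under all 10 alternative ways of computing a value. They also stayed past 1 under each of these except scaling on spike-in RNA, where 6 remained, the median of the imprinted genes turned to 0.26 and 2 genes passed 1 in ELA-EpiSC. That scaling changed the sign of 19 members, 6 of them beyond 2 spot SD on both scales: Cd81 (0.28), Tssc4 (0.24), Igf2r (0.30), Usp29 (0.27), Peg12 (0.30) and Inpp5f (0.22). Scaling on the median moved the median of the imprinted genes to -0.1 and that of all genes to 0.15, a difference of -0.25 between them. The mean of all detected probes brought H19 to -3.28, Ddc to -1.76, Airn to -1.51 and Asb4 to -1.04 and turned Mirg to -0.32, and the processed signal turned Plagl1 to -0.23. With a threshold of 2.5, 3 genes (H19, Igf2 and Ascl2) were counted in EpiSC. Slc22a18 passed 1 with an offset of 0, without background correction, with the processed signal and with the 75th percentile, and Rasgrf1 without the minimum, giving 9. Without H19 and Igf2, counted out after seeing the data, 6 of 36 stayed past 1 and the median was -0.25. Of the 44 detected members, 19 had 1 sign under all 10 alternatives. Differences of dim genes are limited by signal near background, as at the farthest H19 probe.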
